A study of Mus musculus and Homo sapiens
Mus musculus with 16 samples.

Results

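The contacts described here are the short ones among the H3K4me3 PLAC-seq interactions of mouse fetal forebrain: pairs of 10 kb bins whose start positions lie at most 100 kb apart. They were chosen by distance alone, from the interaction list of each library. Over 4 libraries they came to 6900 distinct bin pairs of 58543 in all, or 11.8%, and the other 51643 bin pairs were longer than 100 kb. The embryonic stages compared were E12.5 and E16.5, with 2 libraries each. PLAC-seq joins DNA fragments that are neighbours in the fixed nucleus, and an antibody then enriches the joined fragments that bear a given histone mark. The labels give no genotype, strain, sex or agent for the fetal tissue and do not say whether embryos were pooled. Part of the protocol text attached to E12.5 replicate 1 describes adult cerebral cortex, although its tissue label is fetal forebrain. Each library came from crosslinked frozen tissue that holds all cell types of the forebrain, so fewer cells of a type and fewer contacts per cell cannot be told apart. The labels do not tie replicates to different litters, and a p-value here reflects only how far these libraries scatter, which may be technical. The other 12 of the 16 samples of the series were not analysed here.

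H3K4me3 marks active and poised promoters. A promoter reaches its enhancers, or other promoters, by a loop of the chromatin fibre, and contacts over short distances arise in part from the polymer nature of the fibre itself, which brings neighbours together often. A caller therefore sets the observed number of read pairs against an expected number. Between E12.5 and E16.5 the forebrain passes from a tissue of dividing radial glia, the neural stem cells, to one rich in newly made neurons.

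A few sequences from loci described below are printed here and are credited to RefSeq (GRCm38.p6, the assembly that shares its primary sequence with mm10). The first is the mature miR-9, a microRNA of neural progenitors, because bins at the loci that encode it held some of the highest read-pair counts of all short contacts. Its loci Mir9-1 (chr3:88215613-88215635, plus strand), Mir9-2 (chr13:83738821-83738843, plus strand) and Mir9-3 (chr7:79505279-79505301, plus strand) encode the same 23 bases, with the seed (bases 2 to 8) in capitals.
mmu-miR-9-5p: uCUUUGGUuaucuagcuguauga
The others are promoter windows, from 250 bases before to 50 after the gene start, of genes whose start lay in a bin with a called change in read pairs. Neurod2 and Elfn2 stand for the contacts that were higher at E16.5, Nr2e1 and Lfng for those that were lower. Capitals mark the E-box letters CANNTG, which bind basic helix-loop-helix proteins such as the neurogenic factors; the pattern reads the same on both strands.
Neurod2 (chr11:98329596-98329895, minus strand): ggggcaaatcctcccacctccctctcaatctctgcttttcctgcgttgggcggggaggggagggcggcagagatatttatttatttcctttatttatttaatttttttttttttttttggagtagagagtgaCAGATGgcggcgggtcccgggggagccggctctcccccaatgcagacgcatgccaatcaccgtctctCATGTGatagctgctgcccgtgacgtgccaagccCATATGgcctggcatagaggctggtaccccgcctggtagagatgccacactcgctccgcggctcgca
Elfn2 (chr15:78718722-78719021, minus strand): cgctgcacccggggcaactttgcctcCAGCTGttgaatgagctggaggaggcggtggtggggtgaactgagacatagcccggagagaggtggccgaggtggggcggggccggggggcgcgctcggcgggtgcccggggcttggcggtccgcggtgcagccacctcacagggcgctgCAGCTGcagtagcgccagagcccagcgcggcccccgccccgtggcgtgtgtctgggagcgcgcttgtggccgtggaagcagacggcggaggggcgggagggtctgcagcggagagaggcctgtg
Nr2e1 (chr10:42583541-42583840, minus strand): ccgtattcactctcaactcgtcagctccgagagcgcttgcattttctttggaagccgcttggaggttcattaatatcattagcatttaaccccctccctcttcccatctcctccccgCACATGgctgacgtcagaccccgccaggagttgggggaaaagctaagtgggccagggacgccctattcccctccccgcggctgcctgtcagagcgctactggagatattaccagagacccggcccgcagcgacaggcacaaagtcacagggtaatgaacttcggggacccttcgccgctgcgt
Lfng (chr5:140607091-140607390, plus strand): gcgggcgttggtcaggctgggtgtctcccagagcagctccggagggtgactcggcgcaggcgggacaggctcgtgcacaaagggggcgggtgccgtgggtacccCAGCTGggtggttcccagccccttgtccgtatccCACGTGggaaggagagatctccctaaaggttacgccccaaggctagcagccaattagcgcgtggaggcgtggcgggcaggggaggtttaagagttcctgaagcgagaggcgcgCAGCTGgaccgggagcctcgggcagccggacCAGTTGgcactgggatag
The Neurod2 window held 3 E-boxes and 16 CpG dinucleotides, the Elfn2 window 2 and 29, the Nr2e1 window 1 and 19, and the Lfng window 4 and 22. CANNTG occurred in 68.7% of all 20084 autosomal windows examined, so its presence does not set these promoters apart. Windows whose start lay in a bin of a short contact were richer in CpG than windows at large. Their median was 21 CpG in 3 libraries and 22 in E16.5 replicate 2, against 14 over all windows, and 13.3% to 14.5% of them held TATAA on either strand against 21.9%. Windows at longer contacts had a median of 21 CpG in all 4 libraries. On the same autosomes, starts were known for 77.4% to 80.7% of the genes at short contacts. In 3 of the 4 libraries this was under 80%, so the CpG comparison is void as a check and stands as a description.

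The 4 lists held 405491 to 911710 read pairs in 16075 to 36794 interactions. The depth of sequencing is unknown, and a pair absent from a list may still be in contact. Of the markers of the tissue, Emx2, a cortical patterning gene, was listed with 85 and 99 interactions of any distance at E12.5 against 65 and 70 at E16.5, and had a short contact in E16.5 replicate 2 alone. Pax6, a radial glia gene, had 11 and 6 against 5 and 2, none of them short. Pax6 was therefore listed with contacts over 100 kb alone, while Neurod2 had short contacts alone (1 and 1 against 3 and 1).

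Short interactions were more numerous at E16.5 but took a smaller share of each list. E12.5 replicates 1 and 2 listed 2266 and 2051, and E16.5 replicates 1 and 2 listed 3228 and 4111. The mean was 2158.5 ± 152.0 (SD, n = 2) at E12.5 and 3669.5 ± 624.4 (SD, n = 2) at E16.5, a ratio of 1.70. Longer interactions differed by a ratio of 2.15. Short interactions made up 12.3% and 12.8% of the E12.5 lists and 9.15% and 11.2% of the E16.5 lists, a difference of -2.37 percentage points. The stages did not overlap in number or in share, and both differences exceeded the spread between replicates. The two-sided exact permutation test over the 6 assignments of libraries to stages cannot go below p = 0.333, which was reached for both (adjusted p = 0.367 over 11 quantities).

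Within the short range, numbers were higher at each 10 kb step from 30 to 90 kb in all 4 libraries. At 20 kb, the smallest distance in the lists, there were 66 and 95 interactions at E12.5 against 147 and 304 at E16.5. At 100 kb there were 425 and 388 against 627 and 747. Between 20 and 30 kb the number rose in E12.5 replicate 1 (66 to 76) but fell in the other 3 libraries, from 95 to 73, from 147 to 129 and from 304 to 197. E16.5 replicate 2 had the largest share of its short interactions at 20 kb, 7.39% against 2.91% to 4.63% in the other 3 libraries. Read pairs ran the other way. The median count per interaction fell from 61.5 to 67 at 20 kb, over the 4 libraries, to 30 to 32 at 100 kb.

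**Figure D1:**
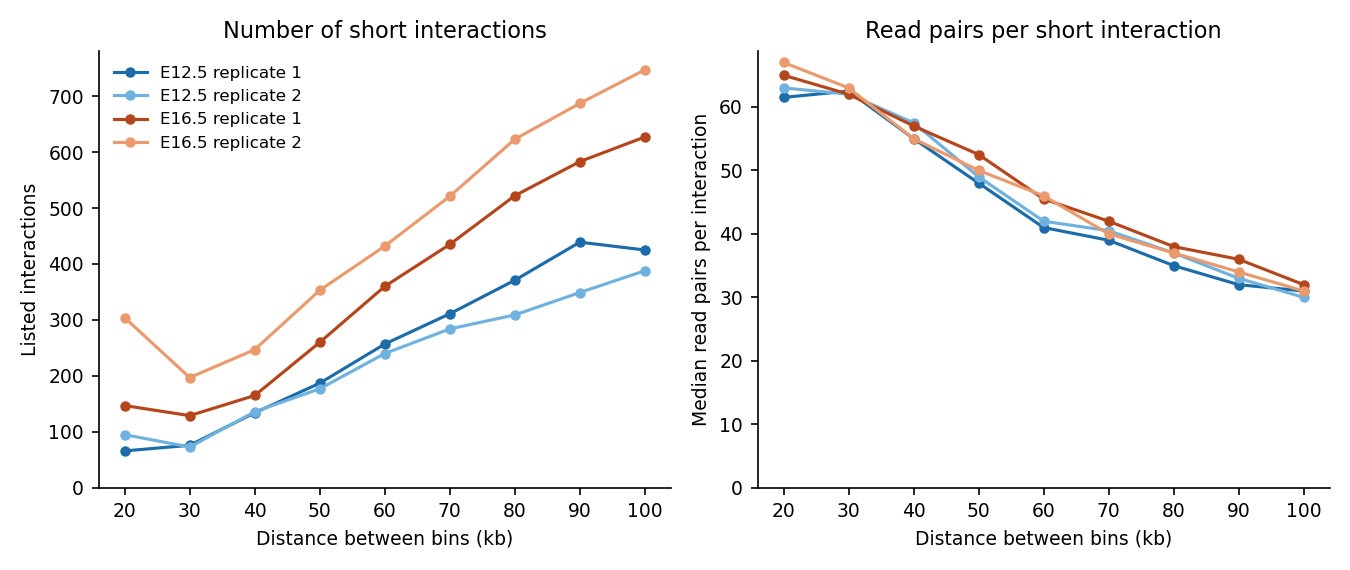
Number of listed short interactions (left) and median read pairs per interaction (right) against the distance between the bins in kb, one line per library. Numbers are 66 to 304 at 20 kb and 388 to 747 at 100 kb, while the median count drops from about 61.5 to 67 to 30 to 32, and the lines of the stages separate in number but lie together in count.

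Each short contact was backed by more read pairs than a longer one, but stood less far above its expected count. The median count per short interaction was 37 and 39 at E12.5 against 41 and 40 at E16.5, against 18 in longer interactions of every library. The median expected count was 14.4 to 15.9 in short and 4.04 to 4.29 in longer interactions. Observed over expected therefore had a median of 2.61, 2.55, 2.52 and 2.51 in short interactions and of 4.10 to 4.26 in longer ones. All 3 differences went the same way in 4 of 4 libraries, and the exact sign-flip test gave p = 0.125, the smallest it can give (two-sided; adjusted p = 0.125 over 8 quantities). Between the stages the median count differed by 2.5 read pairs and the ratio by -0.063 (exact permutation p = 0.333 for both). Short interactions held 23.7% and 25.7% of all listed read pairs at E12.5 against 19.8% and 23.2% at E16.5. The stages did not overlap in this share, but E16.5 replicate 2 lay close to the E12.5 libraries.

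The authors also placed each interaction in a cluster of neighbouring calls. Singletons, calls with no listed neighbour, made up 10.99% and 12.7% of short interactions at E12.5 against 13.5% and 17.95% at E16.5. Among longer interactions they made up 5.93% to 6.60%. Broad clusters went the other way, with 17.5% and 16.48% of short interactions at E12.5 against 10.3% and 11.04% at E16.5. Short contacts were thus more often isolated calls than longer ones in all 4 libraries (exact sign-flip p = 0.125, the smallest possible).

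Recurrence between replicates was near 1 bin pair in 3 at both stages. Both E12.5 libraries listed 1041 of the 3276 short bin pairs that either listed, or 31.8% (95% Wilson interval 30.2% to 33.4%, which covers counting error only). Both E16.5 libraries listed 1753 of 5586, or 31.4% (30.2% to 32.6%). Longer pairs recurred more often, in 38.8% at E12.5 and 41.6% at E16.5. With 1 value per stage these differences have no test over libraries. Recurrence was lower at the shortest distances, going from 9.52% of 147 pairs at E12.5 and 8.41% of 416 at E16.5 at 20 kb to 35.7% of 599 and 37.4% of 1000 at 100 kb. At E12.5 it was already 35.4% at 60 kb, and it was 31.9% and 31.8% at 70 and 80 kb. At 30 kb, the E12.5 value of 26.3% was above the E16.5 value of 16.01%, and their intervals (19.2% to 34.9% and 12.2% to 20.8%) overlapped.

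**Figure D2:**
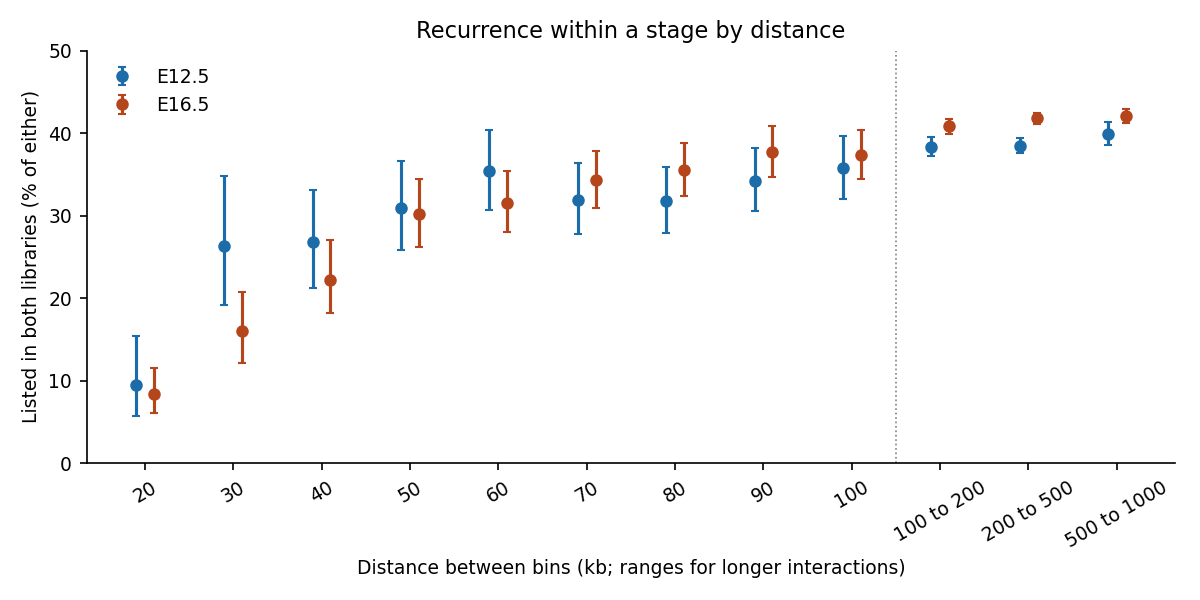
Percent of bin pairs listed in either library of a stage that both libraries listed, by distance in kb, with 95% Wilson intervals; the 3 groups right of the dotted line are longer interactions. Recurrence at 20 kb is 9.52% and 8.41%, and at 100 kb it is 35.7% and 37.4%, below the 38.4% to 42.1% of the longer groups at every distance.

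How often a contact recurred also followed its read pairs. In E12.5 replicate 1, 19.8% of the 567 short interactions with the fewest read pairs were listed in replicate 2 as well, against 69.3% of the 567 with the most. In E16.5 replicate 1 the shares were 31.7% and 74.2% of 807 each. E12.5 replicate 2 gave 35.3% and 65.9%, and E16.5 replicate 2 gave 31.6% and 56.0%. Short pairs listed in all 4 libraries had median counts of 50, 49, 64 and 61.5, and those listed in 1 library had 31, 34, 32 and 37, so the most recurrent contacts had more read pairs in every library.

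Of the 6900 short bin pairs, 656 (9.51%) were listed in all 4 libraries and 4157 (60.2%) in 1 library alone; among longer pairs the shares were 12.0% and 51.6%. Of the 1041 pairs found in both E12.5 libraries, 656 were found in both E16.5 libraries, 221 in 1 of them and 164 (15.8%) in neither. Of the 1753 found in both E16.5 libraries, 480 were found in 1 E12.5 library and 617 (35.2%) in neither. The E16.5 lists are longer, so these 2 shares are not on the same footing. By the Jaccard index, the shared part of the union of 2 lists, replicates gave 0.318 and 0.314 and libraries of different stages 0.229 to 0.275. The mean within stages exceeded that between stages by 0.066 for short and 0.133 for longer pairs (exact p = 0.333 over 3 pairings, the smallest possible, for each). Counting a pair as recurrent when the replicate listed one within 1 bin at each end gave 55.2% and 52.3%; the share that such a looser match gives by chance or within clusters was not tested.

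Genes lay at most short contacts. A gene-end bin is a bin with either end of an autosomal protein-coding gene, of which the table holds 20661; it need not hold the promoter. Both bins were gene-end bins in 17.3% and 17.3% of short interactions at E12.5 against 16.9% and 17.1% at E16.5. In longer interactions this held for 12.1% and 13.1%, and 12.0% and 13.2%. The mean difference was 4.58 percentage points, and short exceeded longer in 4 of 4 libraries (exact sign-flip p = 0.125, the smallest possible). A gene end at 1 bin was found in 55.2%, 58.1%, 55.5% and 61.4%, and no gene end in 27.5%, 24.7%, 27.5% and 21.5%. Between stages, the share with gene ends at both bins differed by 0.28 points, the share being lower at E16.5; this sign turned with a stricter FDR, at which it was 0.103 points higher.

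Many short contacts stayed within a gene. Both bins overlapped the body of the same gene in 23.2% and 25.8% of short interactions at E12.5 against 28.0% and 32.8% at E16.5, and in 9.07% to 12.52% of longer ones. More genes are long enough to hold bins up to 100 kb apart than bins farther apart. In 63, 49, 94 and 142 short interactions the bins held the opposite ends of the same gene. The chromatin remodelling subunit gene Arid1a was joined end to end in all 4 libraries, with 123 and 126 read pairs at E12.5 against 160 and 127 at E16.5. So were Pdlim7, a PDZ and LIM domain gene (98 and 124 against 143 and 135), Celf3, an RNA-binding protein gene (72 and 77 against 102 and 95), and Atoh8, a basic helix-loop-helix gene (63 and 55 against 68 and 79). Counts of these contacts were of the same order in every library.

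Counted by gene, short interactions had an end of 1319 and 1236 genes at E12.5 against 1771 and 2239 at E16.5, or 6.38%, 5.98%, 8.57% and 10.8% of the 20661 genes. At pairs listed in both libraries of a stage, 654 genes were found at E12.5 and 1102 at E16.5. Of these, 491 were common to the stages, which is 75.1% of the E12.5 genes and 44.6% of the E16.5 genes. A further 163 were found at E12.5 alone and 611 at E16.5 alone in lists that are longer at E16.5.

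The gene-end bins with the most recurrent short contacts held genes of several kinds. Irf2bpl, a gene of the interferon regulatory factor 2 binding protein family, had 6 short pairs listed in all 4 libraries, 50 to 100 kb away. These 6 pairs together had 763 and 786 read pairs at E12.5 against 994 and 962 at E16.5, and the bin had 6 and 6 short contacts in all at E12.5 against 7 and 9. Its relative Irf2bp2, a transcriptional corepressor gene, had 5 (361 and 351 against 560 and 566 read pairs in those 5). Also with 5 were Sema5b, an axon guidance semaphorin gene (367 and 352 against 358 and 340 read pairs), Maml3, a Notch coactivator gene (297 and 244 against 337 and 359), Lrp8, the gene of a reelin receptor (494 and 466 against 719 and 802), and Pdlim7. Tob1, Bahcc1, Ago2 and Arid1a had 4 each, and other bins with 4 may be left out. All 10 bins had at least 4 short contacts in every library.

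The highest count belonged to a contact 50 kb long between the Bahcc1 bin and a bin with the end of the noncoding RNA gene 2810410L24Rik (chromosome 11, 120180001 to 120190000 and 120230001 to 120240000). It had 827 and 896 read pairs at E12.5 against 1080 and 837 at E16.5. Loci of miR-9 came next. The Mir9-3 bin (chromosome 7, 79500001 to 79510000), which holds the mature sequence printed above, touched the bin 30 kb away with 634 and 661 read pairs at E12.5 against 926 and 670 at E16.5. It touched the bin 40 kb away with 474 and 465 against 616 and 500. In all it had 6 and 6 short contacts at E12.5 against 9 and 6 at E16.5, of which 5 were listed in all 4 libraries, and 1 longer contact in E16.5 replicate 2 alone. The E16.5 replicate 1 count was the highest of the 4 for each of these pairs. Observed over expected of the Mir9-3 pair 30 kb apart was 2.40 and 2.06 at E12.5 against 2.74 and 2.60 at E16.5. For the Mir9-3 pair 40 kb apart it was 2.88 and 2.36 against 3.10 and 3.13.

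The other loci of the same microRNA were contacted at other distances. At Mir9-1, bins 20 kb apart at the ends of its host transcript Gm3764 shared 488 and 547 read pairs at E12.5 against 943 and 701 at E16.5. The Mir9-1 bin itself had 1 and 1 short contacts at E12.5 against 3 and 0 at E16.5. The Mir9-2 bin had no short contact in any library but 48 and 46 longer ones at E12.5 against 35 and 27 at E16.5. Short contacts were thus a feature of the Mir9-3 and Mir9-1 surroundings and not of the Mir9-2 bin in these lists. Among bin pairs with a gene end, Nr2e1 (347 and 357 against 218 and 199), Borcs6 with the bin of Hes7 and Aloxe3 (290 and 337 against 331 and 334) and, at E16.5, the tubulin gene Tuba1a (176 and 248 against 489 and 353) followed. Anp32a was listed at 20 kb in the E16.5 libraries alone (293 and 286 read pairs). Its observed over expected was 2.06 and 2.05, near the lists' minimum of 2.

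Some gene-end bins had recurrent short contacts at E12.5 alone, each with 2 pairs listed in both E12.5 libraries and neither E16.5 library. They included the bins of Otx1 with Ehbp1, a homeobox gene of the early forebrain (137 and 111 read pairs in those pairs), Dach1, a transcriptional cofactor gene (75 and 59), Nrarp, a Notch feedback inhibitor gene (95 and 87), Hes7 with Aloxe3, a Notch effector gene (256 and 315), Fgfr3 with Letm1, a fibroblast growth factor receptor gene (104 and 101), and Msi1, an RNA-binding protein gene of neural stem cells (112 and 101). The other 4 were Ctc1, Tesk2, Mycl and 1700022I11Rik. All 10 bins had 2 such pairs and were named in chromosome order, so other bins with 2 may be left out. Of the 10 bins, those of Hes7, Nrarp and Msi1 had other short contacts at E16.5 (1 and 2, 2 and 0, and 1 and 1). Of the 3034 gene-end bins with a short contact in any library, 127 had such pairs at E12.5 and 465 at E16.5, where the lists are longer.

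The bins with the most pairs at E16.5 alone lay at other genes. Tiam2, a gene of a Rac activator, had 5 such pairs 60 to 100 kb away, with 225 and 202 read pairs. Dlgap4, a gene of a postsynaptic scaffold protein (225 and 184), Jakmip1, a gene of a microtubule-binding protein of neurons (214 and 209), Elmod1 (192 and 206) and Mtss2 with Vac14 (149 and 119) had 4 each. Ank3, the gene of the ankyrin of the axon initial segment, had 3 (140 and 130), as did Nfic, Cdk17, Sez6 and Copz2. Bins with equal numbers were named in chromosome order, so other bins with 3 may be left out. The bins of Sez6 (3 and 3) and Copz2 (3 and 1) had other short contacts at E12.5. So did those of Ank3 (2 and 0), Nfic (1 and 0) and Cdk17 (0 and 1). These bins were chosen by their listing pattern, so the absence of the counted pairs at the other stage is no separate result.

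The number of short contacts per gene-end bin was then tested by edgeR's quasi-likelihood test for the 226 bins whose contacts summed to 10 or more. It called 4 bins higher at E16.5, 1.77% of those tested, and none lower (14 had an unadjusted p under 0.05 in either direction). All 4 had no short contact listed at E12.5 and entered the test only through their E16.5 contacts, so the calls are given as a description. Tiam2 had 0 and 0 short contacts at E12.5 against 5 and 9 at E16.5. Dlgap4 had 0 and 0 against 4 and 7, and Tnik, a kinase gene, and Jakmip1 each had 0 and 0 against 4 and 6. Tnik also had 0 and 2 longer contacts at E12.5 against 27 and 34 at E16.5, whereas Dlgap4 and Jakmip1 had none.

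These 4 calls were lost, and no bin was called, under DESeq2, when clusters were counted once, and when any library was left out. Bins that did not pass were added by smallest p within each direction, up to 5 per direction with the calls. Cux1, an upper-layer neuron homeobox gene, was added as higher (0 and 0 against 3 and 10, edgeR adjusted p = 0.0728). Added as lower were Nrarp (5 and 4 against 2 and 0, adjusted p = 0.257), Lfng (4 and 6 against 2 and 3), Srgap3 (4 and 5 against 0 and 4), Pkd2l1 with Scd3 (4 and 3 against 1 and 2) and Neurog2 (5 and 3 against 1 and 3). The last 4 each had an adjusted p of 0.984. Over all 3034 gene-end bins with a short contact, numbers were higher in every E16.5 library than in any E12.5 library at 468 (15.4%) and lower at 111 (3.66%).

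Changes in read pairs could be tested where all 4 libraries listed the pair, which leaves out contacts gained or lost. Over all 6875 such pairs, short and longer together, edgeR's quasi-likelihood test with TMM scaling called 5.88% higher and 4.58% lower at E16.5 at an adjusted p under 0.05. Of the 656 short pairs, 36 (5.49%) were higher and 34 (5.18%) lower, near those shares. The median log2 change was -0.08 in short and 0.00059 in longer pairs, and 387 of the 656 short pairs were below 0. Called pairs had a median distance of 75 kb when higher and 70 kb when lower, against 80 kb over all 656. A gene end lay at 31 of the 36 (86.1%) and at 27 of the 34 (79.4%), against 501 of the 656 (76.4%). Raw counts of the stages did not overlap in 36 of the 36 and 33 of the 34, which the call nearly fixes; over all 656, they did not overlap in 52.7% (higher at E16.5) and 8.69% (lower).

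Higher at E16.5 were short contacts of Neurod2, Foxo6, Elfn2, Stmn1 and Tubb2b, among others. The Neurod2 bin, whose promoter is printed above and which encodes a neuronal basic helix-loop-helix factor, touched a bin inside Cdk12 60 kb away with 78 and 67 read pairs at E12.5 against 294 and 214 at E16.5. Both E16.5 counts lay far above both E12.5 counts, and the contact was 2.71-fold higher after scaling (log2 change 1.44, SE 0.21; adjusted p = 9.2e-06). The same bin inside Cdk12 touched the bin of Ppp1r1b, a phosphoprotein gene of striatal neurons, and Gm33099 with 54 and 36 against 122 and 105 (log2 change 0.97, adjusted p = 0.00244). These pairs share a bin and are not independent.

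Foxo6, a forkhead factor gene expressed in the brain, touched a bin 60 kb away with 49 and 52 against 142 and 124 read pairs (log2 change 1.03, SE 0.21, adjusted p = 0.000747). The bins of Elfn2, the gene of a postsynaptic adhesion protein, and Cyth4 shared 39 and 42 against 133 and 86 (log2 change 1.06, adjusted p = 0.00141). Stmn1, the gene of the microtubule destabiliser stathmin, and Pafah2 shared 64 and 61 against 156 and 140 (log2 change 0.88, adjusted p = 0.00281). Tubb2b and Tubb2a (in a bin with Bphl), neighbouring beta-tubulin genes, shared 72 and 71 against 162 and 166 (log2 change 0.83, adjusted p = 0.00428). In each of these the E12.5 replicates lay close together. They lay below both E16.5 replicates, which the naming rule requires after scaling.

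The other named increases had log2 changes of 0.74 to 0.95. Trim2, a ubiquitin ligase gene of neurons, touched a bin in its own body with 51 and 36 against 97 and 118. The bin of Cdk5r1, the gene of an activator of the kinase Cdk5, and Psmd11 touched a bin inside Myo1d with 47 and 46 against 110 and 110. The bin of Nfix, a nuclear factor I gene of the switch to gliogenesis, and Lyl1 touched a bin inside Nfix with 68 and 79 against 182 and 151. Dpysl5, a collapsin response mediator gene of growing axons, touched a bin in its own body with 57 and 59 against 124 and 126 (adjusted p = 0.0142, the largest of the 10).

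Lower at E16.5 were short contacts of Nr2e1, Lfng, Zic5, Igdcc3 and Msi1, among others. Nr2e1, an orphan nuclear receptor gene that maintains neural stem cells and whose promoter is printed above, touched a bin 50 kb away with 347 and 357 read pairs at E12.5 against 218 and 199 at E16.5. The count was lower in both E16.5 libraries although their totals over these pairs were larger, and after scaling it was 2.17-fold lower (log2 change -1.12, SE 0.20; adjusted p = 9.65e-05). Lfng, the gene of a glycosyltransferase that modifies Notch, was at an end of 2 called pairs. It shared 55 and 55 against 28 and 28 with Grifin (log2 change -1.33, SE 0.25, adjusted p = 0.000212) and touched a bin 50 kb away with 58 and 61 against 30 and 35 (log2 change -1.23, adjusted p = 0.000453). The 2 pairs lie in adjacent bins at both ends and are not independent.

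The Zic5 bins, at a zinc finger gene of the dorsal neural tube, touched a bin inside Clybl with 89 and 66 against 48 and 36 at 90 kb (log2 change -1.24, SE 0.24, adjusted p = 0.00021) and with 54 and 46 against 35 and 23 at 80 kb (log2 change -1.15). The ends of Igdcc3, an immunoglobulin superfamily gene, were joined by 100 and 103 against 58 and 63 (log2 change -1.11, adjusted p = 0.000285). Msi1 touched a bin in its own body with 127 and 166 against 87 and 105 (log2 change -0.97). Fgfr3 touched a bin 40 kb away with 166 and 187 against 129 and 117 (log2 change -0.89), and Cdon, a Sonic hedgehog coreceptor gene, a bin 100 kb away with 57 and 52 against 31 and 34 (log2 change -1.10). The bin of the creatine kinase gene Ckb and of Trmt61a touched a bin 20 kb away with 264 and 253 against 166 and 187 (log2 change -0.91). The adjusted p-values of these last 5 contacts ran up to 0.00174. Raw counts of the stages did not overlap in any of the 10 lower pairs, which the naming rule of no overlap after scaling nearly fixes.

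**Figure D3:**
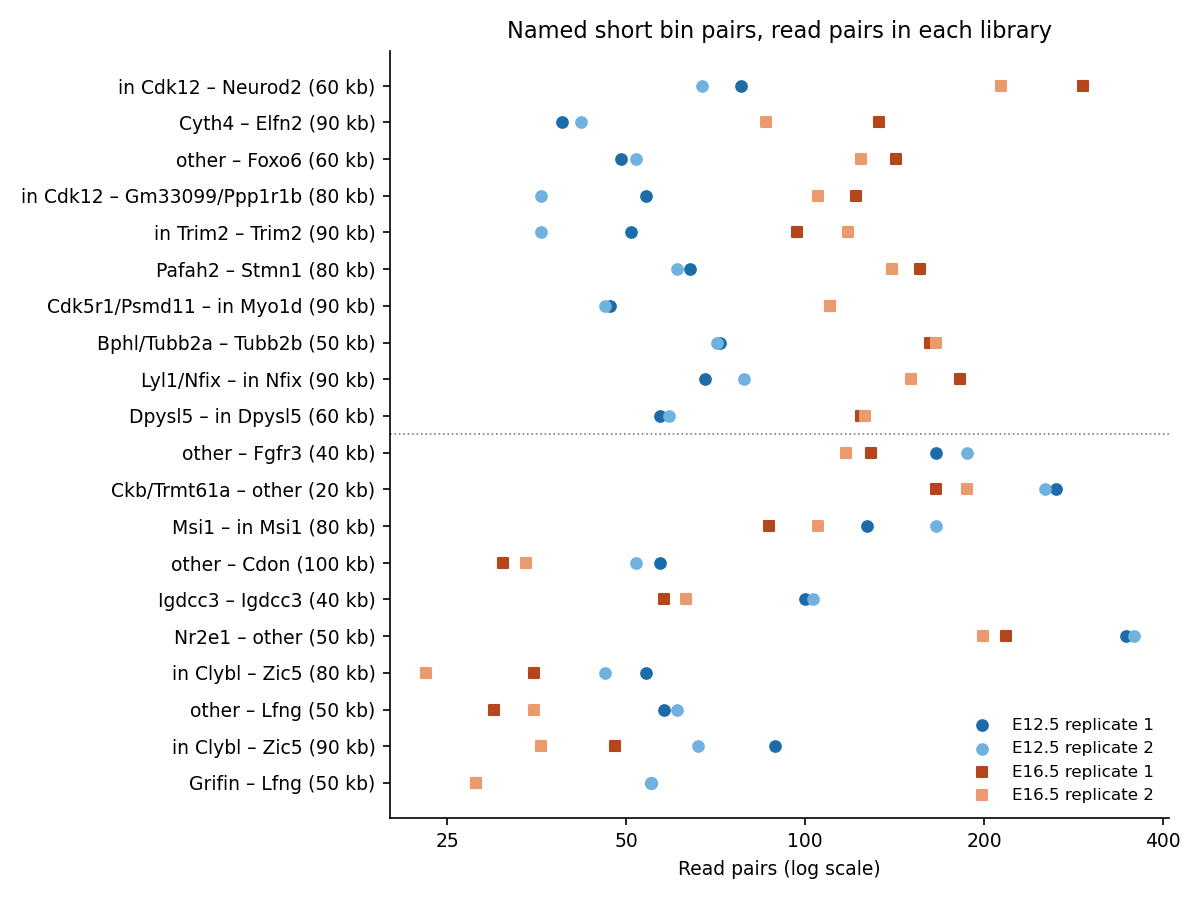
Read pairs per library (log axis) of the 20 named short bin pairs, higher at E16.5 above the dotted line and lower below it; circles are E12.5 and squares E16.5 libraries, and "in" marks a bin inside a gene body. Pairs were named only if the stages did not overlap after scaling, and raw counts do not overlap in any of the 20. Neurod2 lies widest apart above the line (78 and 67 against 294 and 214).

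The authors' expected count moved with the observed count. In the 36 higher pairs the median log2 change was 1.15 for raw counts, 0.72 for the expected count and 0.48 for observed over expected. In the 34 lower pairs these were -0.53, -0.32 and -0.23. The expected count was higher in every E16.5 library than in any E12.5 library for 36 of the 36 higher pairs, against 56.2% of all 656, and lower in every E16.5 library for 25 of the 34 lower pairs, against 8.99%. Observed over expected did not overlap between the stages in 29 of the 36 and in 17 of the 34, against 31.1% (higher) and 13.3% (lower) of the 656. For the Neurod2 pair the expected count was 31.3 and 28.1 against 81.7 and 65.5, and observed over expected was 2.50 and 2.38 against 3.60 and 3.27. For the Nr2e1 pair the expected count was 103 and 91.9 against 74.1 and 61.8, and the ratio was 3.36 and 3.89 against 2.94 and 3.22. Tubb2b had nearly the same ratio throughout (2.56 and 2.41 against 2.70 and 2.74). Over the 656 pairs the changes of count and expected count correlated at r = 0.82, a description in which both come from the same libraries.

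**Figure D4:**
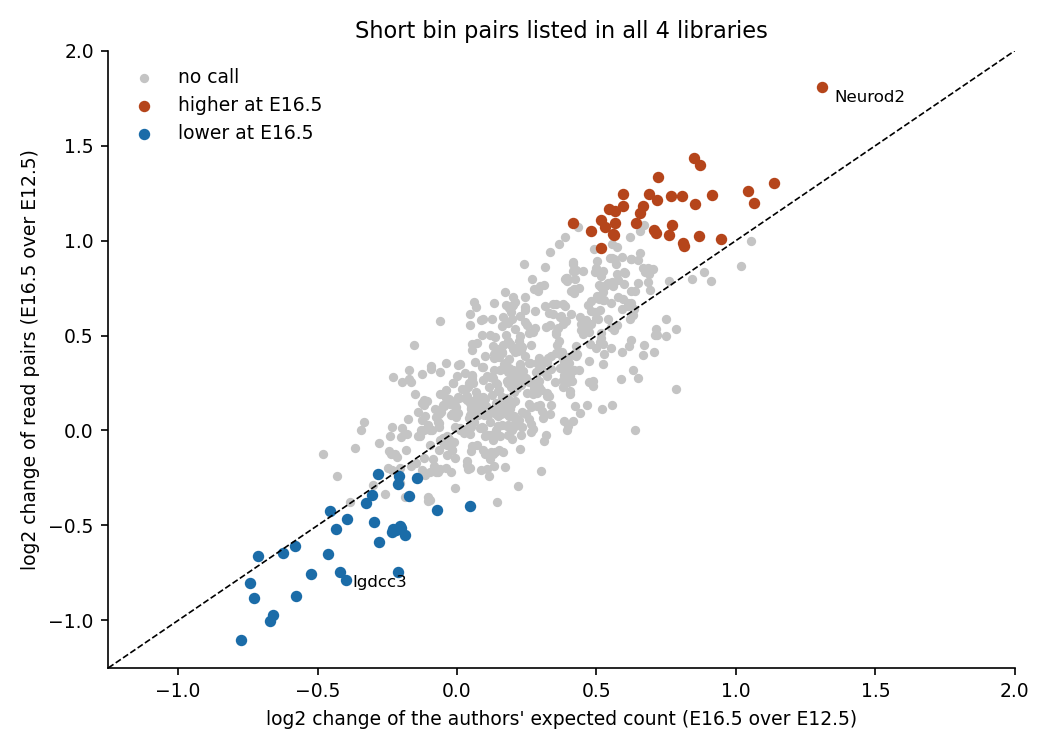
log2 change between stages of read pairs (vertical) against that of the authors' expected count (horizontal) for the 656 short bin pairs listed in all 4 libraries, from stage means without scaling; colours mark the 36 higher and 34 lower calls, and the dashed line marks equal change. Points follow the line (r = 0.82), and the higher calls lie above it.

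With the expected count as an offset in the fit, which tests observed over expected, 0 of the 656 short pairs passed (57 had an unadjusted p under 0.05), and adjusted p was 0.232 for Neurod2 and 0.585 for Nr2e1. The basis of the expected count was not given in the sources used here, and distance alone did not set it. In E12.5 replicate 1 it was 31.3 for the Neurod2 pair and 21.9 for the Foxo6 pair, both 60 kb long. The part of H3K4me3 signal at the bins in these changes was not tested. DESeq2 called 3 higher, among them Neurod2 and Foxo6, and 10 lower, and kept 10 of the 20 named calls. Of the named rises it kept those of Neurod2 and Foxo6 alone. Without E12.5 replicate 1 there were 5 higher and 22 lower calls, and without E12.5 replicate 2 there were 5 and 17; 14 and 11 of the 20 named calls were kept. The split of calls moved in both directions with the scaling and the filter. In the fit over all pairs 51.4% were higher, against 41.9% with the library total without TMM (26 and 36). A mean of at least 20 read pairs gave 44.2% (34 and 43). Scaling within distance bins gave 62.0% (44 and 27), and short pairs fitted alone gave 63.2% (72 and 42).

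By role, short contacts of radial glia and progenitor genes included 3 falls among 6 tested pairs, against 5.18% of the 656 (median log2 change -0.67). The 3 were those of Nr2e1 and of the helix-loop-helix inhibitor genes Id3 (78 and 91 against 64 and 57, log2 change -0.85, adjusted p = 0.00691) and Id4 (74 and 58 against 53 and 39, log2 change -0.88, adjusted p = 0.00814). Notch1, Notch2 and Hes5 did not pass, with log2 changes of -0.48, -0.27 and -0.08. Among 33 genes of this list, 15, 13, 12 and 15 had a short contact in the 4 libraries. Of the 22 with any, the number of contacts was higher in each E16.5 library at 1 and lower at 2. Over all genes with a short contact, 15.9% were higher and 3.76% lower. The 1 higher was Notch2, with 1 and 1 short contacts at E12.5 against 5 and 6 at E16.5. Of the intermediate progenitor and neurogenic list, 3 pairs were tested: Neurod2 rose, and Neurog2 (61 and 53 against 55 and 51, log2 change -0.47) and Gadd45g (70 and 69 against 73 and 49, log2 change -0.55) did not pass. Insm1, a zinc finger gene of intermediate progenitors, had 0 and 0 short contacts at E12.5 against 4 and 3 at E16.5, and Neurog1, a proneural gene, 3 and 4 against 2 and 0.

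Cytoskeleton and axon guidance genes had 6 rises and no fall among 12 tested pairs, against 5.49% higher and 5.18% lower of the 656 (median log2 change 0.63). The rises belonged to 3 genes, with 3 of 4 pairs of Stmn1, 2 of 2 of Tubb2b and 1 of 3 of Tuba1a (176 and 248 against 489 and 353, log2 change 0.62, adjusted p = 0.0403). The pairs of Stmn1 and Tubb2b named above did not pass under DESeq2 (adjusted p = 0.0588 and 0.0658). Nor did they pass edgeR's test with the expected count as offset (adjusted p = 0.201 and 0.838). Slit1, an axon repellent gene, had 3 pairs with log2 changes of 0.14 to 0.65 that did not pass. Pairs of a gene share a bin and are not independent. Upper-layer neuron genes had 1 tested pair, at Mdga1 (44 and 48 against 67 and 65, log2 change 0.16, no call). By number, 3 and 3 of the 17 upper-layer genes had a short contact at E12.5 against 7 and 7 at E16.5. Counts of contacts were higher in each E16.5 library at 5 of the 8 with any, against 15.9% of all 3215 genes with a short contact. They included Pou3f1, a POU factor gene, with 0 and 0 against 2 and 2, and Mdga1 with 2 and 2 against 4 and 4.

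Genes of GABAergic neurons had no call among 7 pairs, 6 of them at the vesicular GABA transporter gene Slc32a1 (log2 changes 0.13 to 0.65; the largest had 41 and 41 against 81 and 85). Deep-layer neuron, synapse and cell cycle genes had no tested pair. A short contact was listed at 0, 1, 2 and 3 of the 35 synapse genes in the 4 libraries, beside 6.38%, 5.98%, 8.57% and 10.8% of all genes. The activity-regulated genes had 3 pairs without a call, among them Fosb (155 and 150 against 201 and 201, log2 change 0.04). Of the glia list 2 of 5 pairs rose, against 5.49% of the 656, and all 5 were at Nfix, which neurons and progenitors also express.

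Patterning genes of other regions had their short contacts mostly at E12.5. Of 37 genes listed for regions outside the forebrain, chiefly Hox genes, 12 and 13 had a short contact at E12.5 against 0 and 2 at E16.5. Counts of contacts were lower in each E16.5 library at 7 of the 17 with any, against 3.76% of all genes with a short contact. Hoxd3 had 1 and 3 against 0 and 0, Hoxb9 2 and 1 against 0 and 0, and Pax3, a dorsal neural tube gene, 2 and 1 against 0 and 0. Neighbouring Hox genes can share a bin, so the 7 need not be separate loci. Over all distances 3 of the 7 also had fewer interactions in each E16.5 library than in either E12.5 library, among them Pax3 (8 and 3 against 1 and 0), and the other 4 did not, among them Hoxd3 (18 and 15 against 18 and 13) and Hoxb9 (14 and 8 against 20 and 12). Their part in the other results was not tested.

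Diencephalon and choroid plexus genes had 3 falls among 4 pairs, against 5.18% of the 656 (median log2 change -1.09), at Zic5 and at its neighbour Zic2 (73 and 63 against 53 and 33, log2 change -1.02, adjusted p = 0.00238), all with the same bin inside Clybl. Meninges, mesenchyme and vessel genes had a short contact at 1, 1, 2 and 0 of 21 genes. Microglia and blood genes had one at 2, 2, 1 and 2 of 15, where Aif1 (73 and 61 against 76 and 84) was the sole tested pair, with no call. Housekeeping genes had no call among 6 pairs (median log2 change -0.18), nor had chromatin regulators among 7 (median -0.25). These medians stand beside -0.08 over all 656 short pairs.

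**Figure D5:**
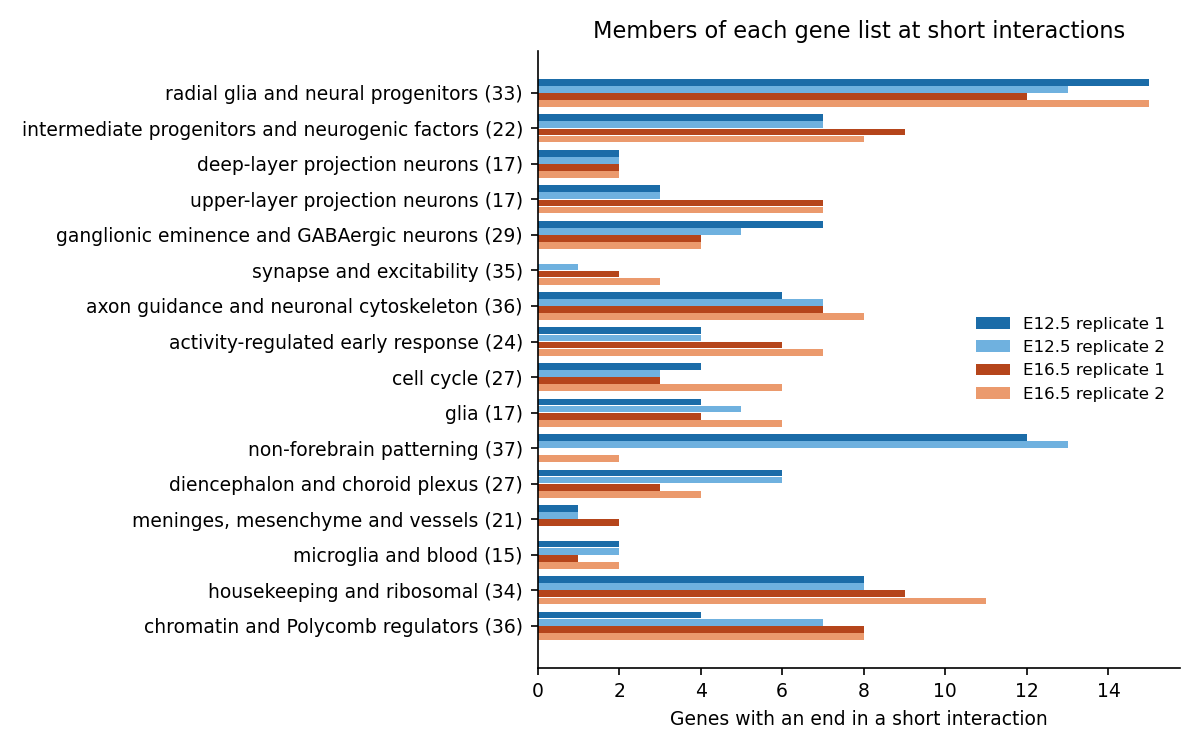
Number of genes of each list with an end in a short interaction, one bar per library; the number in brackets is the list's autosomal genes. Genes of other regions than the forebrain drop from 12 and 13 at E12.5 to 0 and 2 at E16.5, while upper-layer neuron genes go from 3 and 3 to 7 and 7.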

How the data were processed

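H3K4me3 PLAC-seq was measured in 4 mouse fetal forebrain libraries, 2 per stage. Per the labels' protocols, tissue was frozen, fixed in formaldehyde and digested with MboI; per the submitters' processing notes, BWA, SAMtools and mm10 were used. Versions and the interaction caller were not given in the sources used here. Each deposited list gives, per the file headers, the count of read pairs for pairs of 10 kb bins, the expected count, an FDR (a q-value), cluster fields and the −log10 p of the cluster. The authors' lists hold pairs on 19 autosomes, 20 to 1000 kb apart, with observed over expected of at least 2 and an FDR under 0.01; whether replicates were pooled is settled by the files, 1 per library.

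From these, short pairs (at most 100 kb) were counted and matched to a RefSeq gene table of GRCm38.p6. That table gives no strand; gene starts came from the RefSeq promoter table, which covers 16456 of 20661 genes. Counts were tested with edgeR 4.0.16 in R 4.3.3 (TMM, robust quasi-likelihood, stage as sole term, Benjamini-Hochberg at 0.05). The fit of read pairs ran over all 6875 pairs listed in all 4 libraries, and that of contact number over 226 gene-end bins summing to 10 or more. An SE was taken as log2 change over the square root of F. The test was tried on simulated counts first. Single values used exact tests over 6 assignments, 3 pairings or the signs of 4 libraries. Replicates differed by more than counting noise (chi-square per degree of freedom 1.22 over 640 pairs at E12.5 and 1.40 over 1074 at E16.5), so each was kept as a sample. Alternatives were DESeq2 1.42.0, the library total, scaling within distance bins, the expected count as offset, short pairs alone, a quasi-dispersion of at least 1, other minimums, an FDR under 0.0001, lists of equal length, clusters counted once, a limit of 50 kb, a block for replicate number, and leaving out each library; gene-start bins were added after seeing the data.

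Members and the 16 gene lists were chosen with earlier results of these data known. Named by rule were, per direction, up to 10 called gene-end bins with 1 or 2 genes and 10 called pairs at such bins with the smallest p, at most 1 per gene-end bin; where fewer bins passed, up to 5 by smallest p, said not to pass; the 10 bins with the most pairs in all 4 libraries or in 1 stage alone; the 5 pairs per stage with the highest counts; and in each list up to 6 members, those called and the 3 of smallest p. Outside the lists, bins and pairs named by smallest p also had to have scaled values that did not overlap between the stages. Bins named by their number of pairs ran in chromosome order within a tie, so others with as many pairs may be left out. The miR-9 loci, Atoh8, Celf3, tissue markers, Insm1, Neurog1, Pou3f1, Hoxd3, Hoxb9 and Pax3 were named after their values were seen.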

Additional observations from a re-analysis of the deposited data

How the results depend on the processing

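The number of short interactions, their share, the median count and the excess of pairs with gene ends at both bins over longer pairs kept their direction in every alternative run, but the difference in share, -2.37 points, was -0.26 with a limit of 50 kb (exact permutation p = 1.0) and -1.36 without E16.5 replicate 1. The stage difference in gene ends at both bins, -0.28 points, was 0.103 points with an FDR under 0.0001 and -2.17 points with 1 pair per cluster. Recurrence at E12.5 was 55.2% within 1 bin at each end, 33.7% with an FDR under 0.0001 and 24.9% with a limit of 50 kb; at E16.5 it was 52.3% within 1 bin and 19.7% at 50 kb. The 4 higher calls of contact number became 0 under DESeq2, over all bins, with clusters counted once (9 bins tested), at gene-start bins, with lists of equal length, with a quasi-dispersion of at least 1, with a sum of at least 1 or of at least 20 (28 bins tested), and with each library left out (0 to 0). Of the 36 higher and 34 lower calls of read pairs, DESeq2 left 3 and 10 (57 pairs had no adjusted p), the expected count as offset 0 and 0, and the limit of 50 kb 7 and 11 of 102 pairs, a smaller set. With each library left out, 5 to 32 were higher and 17 to 31 lower. Short pairs fitted alone gave 72 higher and 42 lower, and the library total without TMM gave 26 and 36. Replicate numbers did not pair the libraries in the labels (correlation of same-numbered deviations 0.141 over short pairs); with the number as a replicate block, the ratio of short interactions was 1.69, 6 bins were higher in number, and 50 and 52 pairs were called. Single pairs whose sign turned did so with the expected count as offset: Zic2 to 0.048, Fosb to -0.018, Aif1 to 0.42 and Eef1a1 to 0.012 on the log2 scale; with each library left out, Fosb ranged from -0.0081 to 0.090 and Aif1 from -0.22 to 0.019. The cause of these changes was not tested. Depth is unknown, so contacts that are not listed limit all counts.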
